A study of Mus musculus with 4 samples.

Results

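Osteoclast differentiation genes were followed in macrophages sorted from the mouse heart. The set held 7 of the 31053 genes in the count tables: Ctsk, Acp5, Atp6v0d2, Dcstamp, Ocstamp, Nfatc1 and Tnfrsf11a. They were read in 93 cells with at least 5 Ctsk UMIs, called Ctsk-high cells here, and in 31472 other C1q-positive cells, out of 41533 cells kept. A UMI is a molecular barcode that counts 1 captured transcript, and a C1q-positive cell held at least 10 UMIs of C1qa, C1qb and C1qc together. The genes and the threshold were chosen by these same levels, in Ctsk-high cells and over Gpnmb counts, so the values of the 7 genes are a description and carry no test.

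The cells came from CSF1R-EGFP reporter mice of 12 to 16 weeks, in which the Csf1r promoter drives a green fluorescent protein, and were sorted as EGFP-positive and Ly6G-negative, a gate against neutrophils, after which 74 baseline and 252 infarct cells were still granulocyte-like by their transcripts. Baseline was 1 library of 3 pooled hearts with no surgery, so it had no replicate. The 3 infarct libraries came from separate hearts, 1 heart per library, at 7 days after ligation of the left coronary artery, and the remote zone had been cut away before digestion. The reporter marks every cell with an active Csf1r promoter, and all 4 libraries carried it.

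Osteoclasts are the multinucleated cells that dissolve bone. They form when precursors of the monocyte and macrophage lineage receive CSF1 together with the ligand of the receptor RANK, which switches on the transcription factor NFATC1, and NFATC1 in turn drives genes for cell fusion, acid secretion and matrix digestion. Individual genes of the set are also used outside bone: cathepsin K by fibroblasts, and tartrate-resistant acid phosphatase by lipid-laden and tissue-repairing macrophages. GPNMB, a glycoprotein of lysosome-rich macrophages, was the axis of the second comparison.

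By role, Tnfrsf11a encodes RANK, the receptor at the top of the pathway, and lies at chr1:105780718-105847981 on the plus strand (GRCm38). Nfatc1 encodes the master transcription factor, and its position is given with its values. Dcstamp, at chr15:39745930-39760938 on the plus strand, and Ocstamp, at chr2:165393760-165400405 on the minus strand, encode membrane proteins needed for cell fusion. Atp6v0d2, at chr4:19876841-19922605 on the minus strand, encodes a subunit of the proton pump. Acp5, at chr9:22126727-22135711 on the minus strand, encodes tartrate-resistant acid phosphatase, and Ctsk, at chr3:95499256-95509362 on the plus strand, encodes cathepsin K, the main collagen-cleaving protease of osteoclasts.

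RefSeq promoters were on hand for 3 of the 7 genes, and 3 of their 5 listed starts are shown because Ctsk and Acp5 were the most abundant members in Ctsk-high cells and Tnfrsf11a differed least. Each sequence covers 240 bases, from 250 to 11 bases before the start (GRCm38.p6, read 5′ to 3′ on the gene's own strand). Capitals mark matches on either strand to GGAAA (NFAT), TGANTCA (AP-1), TCANGTG (MITF and TFE) or GAGGAA (PU.1), and matches to GGAAA and GAGGAA can overlap.
Ctsk, chr3:95498960-95499199, plus strand: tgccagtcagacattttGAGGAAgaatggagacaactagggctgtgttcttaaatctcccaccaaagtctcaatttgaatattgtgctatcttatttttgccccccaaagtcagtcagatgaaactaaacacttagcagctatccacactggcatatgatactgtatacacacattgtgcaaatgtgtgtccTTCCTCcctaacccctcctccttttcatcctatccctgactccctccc
Acp5, start 3, chr9:22130609-22130848, minus strand: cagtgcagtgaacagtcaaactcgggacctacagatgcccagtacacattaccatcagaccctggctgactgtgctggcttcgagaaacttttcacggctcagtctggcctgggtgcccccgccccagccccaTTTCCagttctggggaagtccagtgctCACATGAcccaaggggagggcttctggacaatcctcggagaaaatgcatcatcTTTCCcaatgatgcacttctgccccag
Tnfrsf11a, chr1:105780473-105780712, plus strand: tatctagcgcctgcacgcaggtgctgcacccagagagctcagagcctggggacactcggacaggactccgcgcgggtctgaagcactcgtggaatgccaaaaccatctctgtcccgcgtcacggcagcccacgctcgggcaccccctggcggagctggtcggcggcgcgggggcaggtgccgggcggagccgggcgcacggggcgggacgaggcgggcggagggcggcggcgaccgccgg
The Ctsk window held 2 PU.1 matches, at 233 and 58 bases before the start. The third Acp5 start, shown because it held the most matches of its 3 starts, had 2 NFAT matches, at 117 and 37 bases, and 1 MITF and TFE match, at 90 bases. None of the 4 motifs was found in the Tnfrsf11a window. Over 32851 promoters of the same length, 54.1% held the NFAT letters, 6.58% the AP-1 letters, 11.7% the MITF and TFE letters and 22.3% the PU.1 letters. A match is a stretch of letters and was not tied to any factor by these data.

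The 4 libraries held 10117 to 10782 cells after filtering and 71093963 to 97944428 deposited UMIs, with a median of 6398.5 UMIs per cell at baseline and 8469.5 to 8556.5 in the infarcts. Library pairs shared 26 to 34 cell barcodes, and no Ctsk-high cell was among them. Infarct replicate 2 stood apart for the set: it held 65 of the 93 Ctsk-high cells, so each infarct value is given by library and, where it matters, without those cells.

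Ctsk, Acp5, Atp6v0d2 and Ocstamp were higher in all 3 infarct libraries than at baseline, and Dcstamp, Nfatc1 and Tnfrsf11a were lower in all 3. Levels are given in counts-per-million units (CPM) of UMIs, with counts summed over all cells of a library and mitochondrial genes left out. In such sums, fewer expressing cells and less RNA per cell cannot be told apart. With 1 baseline library there was no test, and the ranges after baseline values are 95% Poisson intervals, which cover counting error only.

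Ctsk stood at 2.20 CPM at baseline (1.86 to 2.59) and at 9.5, 137 and 22.2 CPM in infarct replicates 1, 2 and 3. Without Ctsk-high cells it was 1.41 CPM at baseline and 2.95, 4.29 and 2.65 CPM in the infarcts. The infarct mean was thus 25.5 times baseline with those cells (56.2 ± 70.2 CPM, SD, n = 3) and 2.34 times baseline without them (3.30 ± 0.873 CPM). Replicate 2 stood far above the others, and 96.9% of its Ctsk UMIs lay in Ctsk-high cells.

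Acp5 differed also outside Ctsk-high cells. It was 18.6 CPM at baseline (17.6 to 19.7) and 83.0, 187 and 95.6 CPM in the infarcts. Leaving out Ctsk-high cells brought the 3 hearts together, at 80.0, 91.6 and 88.4 CPM against 18.6 CPM, a mean 4.67 times baseline (86.6 ± 6.0 CPM, SD, n = 3).

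The proton-pump subunit gene Atp6v0d2 measured 6.86 CPM at baseline (6.25 to 7.52) and 7.34, 21.8 and 11.6 CPM in the infarcts. Without Ctsk-high cells the infarct values were 7.02, 6.43 and 10.4 CPM against 6.72 CPM, so replicate 2 then lay below baseline and 2 of 3 hearts above it.

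The 2 fusion genes were scarce and went in opposite directions. Dcstamp was 6.02 CPM at baseline and 1.85, 4.23 and 1.73 CPM in the infarcts, and without Ctsk-high cells baseline was 3.38 times the infarct mean (1.78 ± 0.161 CPM, SD, n = 3). Ocstamp was 1.08 CPM at baseline and 1.90, 4.11 and 1.59 CPM in the infarcts, from 73 UMIs at baseline.

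The receptor and the transcription factor were lower in infarcts by similar amounts. Nfatc1, on the minus strand at chr18:80606205-80713071 (GRCm38), measured 75.2 CPM at baseline (73.1 to 77.3) and 51.9, 58.4 and 50.4 CPM in the infarcts. Tnfrsf11a measured 77.4 CPM (75.3 to 79.5) and 54.3, 57.7 and 50.5 CPM. Baseline was 1.40 times the infarct mean for Nfatc1 and 1.43 times for Tnfrsf11a, with no overlap between the infarct values and baseline.

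Against the whole transcriptome these directions are common. Of 14167 genes with enough counts, 26.4% were higher and 57.8% lower in all 3 infarct libraries, where the set had 4 and 3 of 7. A change of 2-fold or more in all 3 libraries was less common: 3.62% of genes were that much higher, among them Ctsk and Acp5, and 10.2% that much lower, with no member among them. TMM scaling moved the median log2 ratio of infarct to baseline over 3033 well-measured genes from -0.06 to 0.22. It left the direction of all 7 genes as given, but not the size of the differences. Nfatc1 and Tnfrsf11a, with log2 ratios of -0.489 and -0.514 in CPM, were lower by less under TMM.

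**Figure D1:**
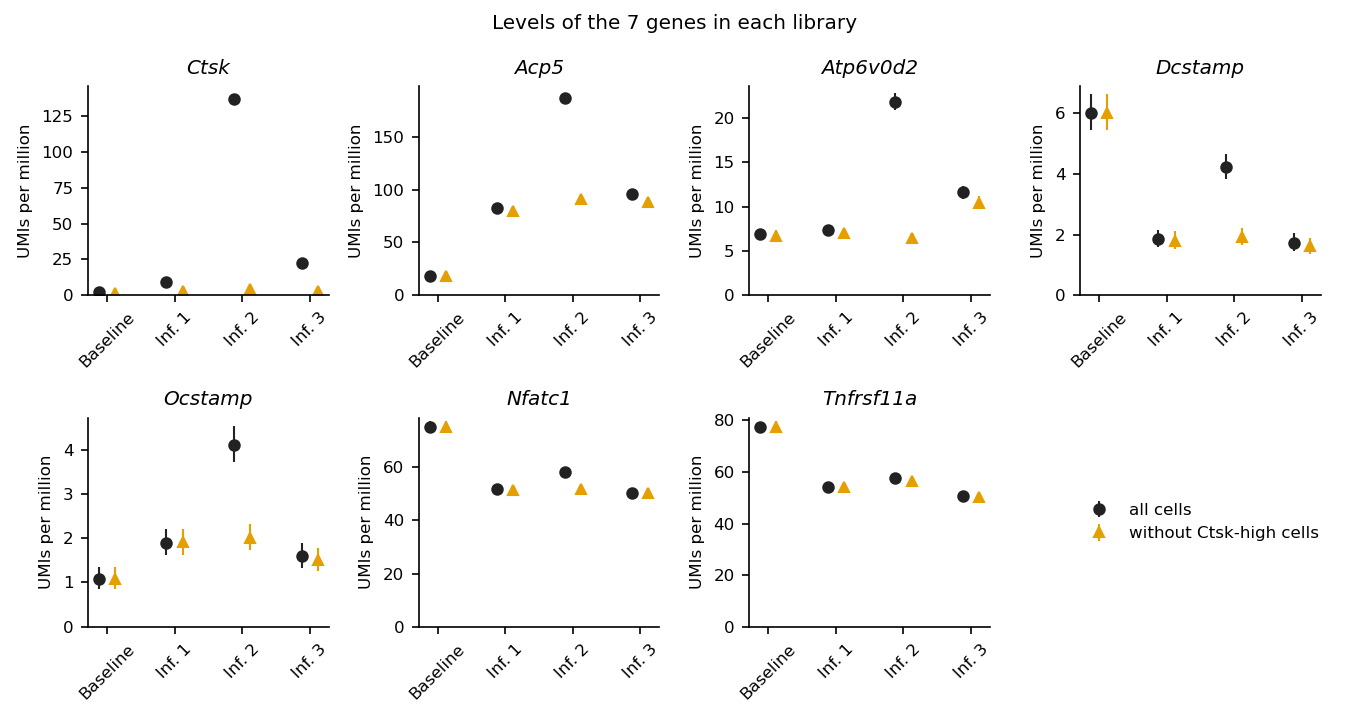
Level of each of the 7 genes in each library, in CPM on a linear axis, over all cells (circles) and without Ctsk-high cells (triangles), with 95% exact Poisson intervals as bars. Ctsk in infarct replicate 2 is 137 CPM with and 4.29 CPM without Ctsk-high cells, whereas Tnfrsf11a is 57.7 and 56.6 CPM.

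Ctsk-high cells were rare in every library. There were 4 at baseline, and 14, 65 and 10 in infarct replicates 1, 2 and 3, or 0.0391%, 0.135%, 0.603% and 0.0988% of the cells kept. At the edge of the threshold, 6 cells in all had exactly 5 Ctsk UMIs and 14 cells had exactly 4. The upper end was far from it: 53 cells had at least 20 Ctsk UMIs, 47 of them in infarct replicate 2, and the highest counts were 25 at baseline and 368, 903 and 904 in the infarcts. These cells were also deep, with median UMI counts of 15754.5 at baseline and 20089.5, 26875 and 16598.5 in the infarcts, against 6972, 8872, 8666.5 and 8910.5 in other C1q-positive cells. Libraries were prepared from cells gated as single by scatter, no doublet caller was run here, and the part of cell aggregates in these counts was not tested.

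The 93 cells were of 3 kinds by transcripts that the threshold did not use. In 25 cells there were at least 10 C1q UMIs. A further 14 cells had fewer than 10 C1q UMIs and at least 3 UMIs of the fibroblast genes Col1a1, Col1a2, Col3a1, Dcn, Lum and Pdgfra, and 9 of these 14 came from infarct replicate 1, where they were most of its 14 Ctsk-high cells. The remaining 54 cells were below both limits, and 47 of them came from infarct replicate 2. Of these 47, 45 still had a C1q UMI, with a median of 3 and at most 8 per cell, and 7 had a fibroblast UMI. C1q, a defining macrophage transcript, therefore passed the limit in 25 of the 93 cells, and the name macrophage is kept here only for C1q-positive cells.

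In the 47 cells of infarct replicate 2 below both limits, Cd68 was above the level of other C1q-positive cells. Csf1r, Adgre1, Mertk and Fcgr1 were lower, with Adgre1 and Mertk almost missing. Cd68, a lysosomal glycoprotein of phagocytes, was 880 CPM against 621 CPM, and Csf1r, the receptor for CSF1, was 437 against 802 CPM. Adgre1, which encodes F4/80, was 20.4 against 618 CPM, and Mertk, a receptor for dying cells, 4.26 against 62.2 CPM. Summed over the 5 of 8 macrophage markers that are not C1q genes, these cells held 1387 CPM against 2449 CPM, with none at 0. The sum over all 8, 1526 against 19902 CPM, includes C1q, by which both groups of cells were chosen. Over 8 resident-macrophage markers they held 18.7 against 635 CPM, with 3 at 0. The 7 fibroblast markers, most of which the fibroblast limit used, summed to 6.81 against 66.1 CPM, with 4 at 0. No cell type name is given to these cells here.

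The 9 fibroblast-marked cells of infarct replicate 1 had another profile. Their fibroblast markers summed to 57358 CPM and their macrophage markers to 254 CPM. Ctsk had a median of 6 UMIs in these cells, Acp5 was found in 5 of the 9, and Atp6v0d2 and Dcstamp in 1. That 1 cell held 125 Ctsk UMIs and 86 Acp5 UMIs, but only 3 fibroblast UMIs, which is the limit itself. The others of the 9 held 801 to 1776 fibroblast UMIs.

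Every member was higher in Ctsk-high than in other C1q-positive cells of infarct replicate 2, where the cells were most numerous. Ctsk, which chose the cells, was 871 CPM at baseline and 2370, 7883 and 9927 CPM in the infarcts, against 1.02, 2.48, 3.94 and 2.37 CPM in other C1q-positive cells. Acp5 was 64.5 CPM at baseline, from 4 UMIs, and 1181, 5760 and 3717 CPM in the infarcts, against 15.5, 86.5, 95.7 and 92.9 CPM. Atp6v0d2 was 161 CPM at baseline and 123, 920 and 612 CPM in the infarcts, against 7.22, 8.05, 6.22 and 10.9 CPM. Its baseline value came from 10 UMIs in 1 cell, and its value in replicate 1 from 30 UMIs in 3 cells. Of both enzymes and of the pump subunit, every library's Ctsk-high cells lay above its other C1q-positive cells.

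The fusion genes separated the libraries. Dcstamp had no UMI in the 4 Ctsk-high cells of baseline and measured 20.4, 139 and 65.3 CPM in the infarcts, against 1.09, 1.27 and 1.13 CPM in other C1q-positive infarct cells. Ocstamp had no UMI at baseline or in infarct replicate 1, where the Poisson interval reached 59.5 and 15.1 CPM, and measured 127 and 47.5 CPM in infarct replicates 2 and 3, against 1.30 and 0.965 CPM. Of all Dcstamp and Ocstamp UMIs of infarct replicate 2, 55.2% and 51.8% lay in its 65 Ctsk-high cells.

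Nfatc1 and Tnfrsf11a differed least. Nfatc1 was 80.6 CPM at baseline and 168, 434 and 95 CPM in the infarcts, against 73.8, 53.4, 51.4 and 49.8 CPM. Tnfrsf11a was 16.1 CPM at baseline, from 1 UMI, and 61.3, 122 and 95 CPM in the infarcts, against 98.3, 58.1, 58.0 and 52.3 CPM. In infarct replicate 1 the Tnfrsf11a values of both groups of cells lay within the Poisson interval of 34.3 to 101 CPM.

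Over the 3 infarcts the means in Ctsk-high and other C1q-positive cells were 3553 ± 2294 and 91.7 ± 4.72 CPM for Acp5 and 551 ± 402 and 8.40 ± 2.38 CPM for Atp6v0d2 (SD, n = 3). For Dcstamp they were 74.8 ± 59.7 and 1.16 ± 0.0956 CPM, and for Ocstamp 58.0 ± 63.9 and 1.16 ± 0.172 CPM. For Nfatc1 they were 232 ± 178 and 51.5 ± 1.81 CPM, and for Tnfrsf11a 92.8 ± 30.5 and 56.1 ± 3.34 CPM. The Ctsk-high groups, of 14, 65 and 10 cells, spread more than the others for each of these genes. In infarct replicate 2, 17.3% of 7708 genes were at least 2-fold higher in Ctsk-high cells and 14.5% at least 2-fold lower, where the 7 members counted 7 and 0, a split that the choice of the set fixes. The shares were 38.0% and 4.91% in the 4 cells of baseline, 20.9% and 15.1% in infarct replicate 1, and 10.5% and 9.02% in replicate 3. In these 3 libraries, in that order, 3, 5 and 5 members were higher and 1, 0 and 0 lower. Counts below 3 UMIs were taken as 3, so in groups of few cells a sparse or absent gene could count as higher. The baseline split of 38.0% and 4.91% is therefore not read as a measured background.

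Members were found together in single cells. All 7 had at least 1 UMI in 31 of the 65 Ctsk-high cells of infarct replicate 2 (47.7%), in 2 of 10 in replicate 3, and in 0 of 14 in replicate 1 (allowing up to 21.4%) and 0 of 4 at baseline (up to 75%). Among the other C1q-positive infarct cells, 0 of 25023 had a UMI of all 7, a count that allows a share of up to 0.0120%, and 19 had at least 5. Depth differed between these groups of cells as given above. At full depth, 47 cells of infarct replicate 2 lay below the C1q and fibroblast limits. In these, Ctsk was found in 47, Nfatc1 in 46, Acp5 in 45, Atp6v0d2 and Tnfrsf11a in 44, and Dcstamp and Ocstamp in 32.

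Within those 47 cells the members' shares of a cell's UMIs were set against each other by rank correlation, a description since the cells share a library and shares add up to a whole. Ctsk with Acp5 gave a Spearman's rho of 0.84, Acp5 with Atp6v0d2 0.71 and Dcstamp with Ocstamp 0.64, and the other pairs of these 5 genes lay between 0.46 and 0.60. Pairs with Nfatc1 lay between 0.04 and 0.35 and those with Tnfrsf11a between 0.16 and 0.33. Ctsk itself ranged from 5 to 903 UMIs per cell in them, with a median of 120.

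**Figure D2:**
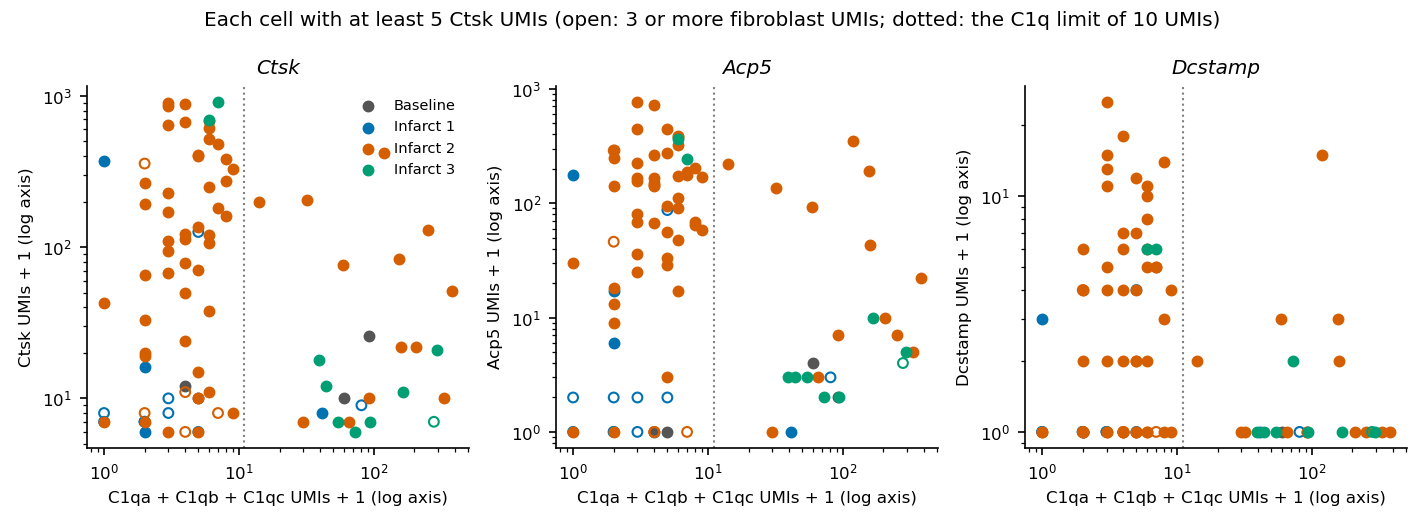
UMIs of Ctsk, Acp5 and Dcstamp against C1q UMIs in each of the 93 Ctsk-high cells, both axes on a log scale of count + 1, with open symbols for fibroblast-marked cells and a dotted line at the C1q limit of 10. Most cells of infarct replicate 2 lie left of the line with high Acp5. Most fibroblast-marked cells of replicate 1 lie low for Ctsk and Acp5, except 1 with 125 Ctsk and 86 Acp5 UMIs.

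The other genes of osteoclast formation were taken from 7 lists of 95 genes: signal inputs, transcription factors, brakes, acid and resorption, fusion and adhesion, mature osteoclast markers, and ligands and decoy. Mmp9, Car2, Itgb3 and Oscar stand on 2 lists each. In Ctsk-high cells of infarct replicate 2, 30 of the 95 were at least 2-fold higher than in other C1q-positive cells, 22 at least 2-fold lower and 32 within 2-fold, and 11 had too few counts. The counts were 16 higher and 37 lower in replicate 1, 22 higher and 14 lower in replicate 3, and 27 higher and 5 lower at baseline. They stand beside the shares of all genes given above for each library. In all of these counts fewer than 3 UMIs were taken as 3, so a sparse or absent gene could count as higher. Prdm1 at baseline was counted so, with no UMI in Ctsk-high cells against 22.6 CPM in other C1q-positive cells.

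Genes on the list of mature osteoclast markers were present in part. Mmp9, a gelatinase of osteoclasts and neutrophils, was 0 at baseline and 1075, 2079 and 1092 CPM in the infarct Ctsk-high cells, against 9.62, 5.33, 2.30 and 3.24 CPM in other C1q-positive cells. Slc9b2, a sodium and proton exchanger known from osteoclasts, was 0 at baseline and 16.3, 350 and 148 CPM in the infarcts, against at most 0.989 CPM in other cells. Few cells carried these values outside replicate 2: Mmp9 was found in 21.4%, 66.2% and 20% of the Ctsk-high cells of replicates 1, 2 and 3, and Slc9b2 in 14.3%, 76.9% and 30%, in replicate 1 from 4 UMIs. Ckb, a creatine kinase, was 282, 1283 and 1573 CPM in the infarcts against 463, 513 and 488 CPM.

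Car2, the carbonic anhydrase that supplies protons, had 124 UMIs in infarct replicate 2 (78.5 CPM), 2 in replicate 3 and none in the other libraries. Oscar, an osteoclast co-receptor, had 67 UMIs in replicate 2 (42.4 CPM) and 1 in replicate 3. Itgb3, the integrin beta chain of the sealing zone, was 24.5 and 35.4 CPM in replicates 1 and 2 and had no UMI in replicate 3. Rab38 was 4.09, 21.5 and 5.94 CPM, and Siglec15 had no UMI in replicate 1 and measured 4.43 and 5.94 CPM in replicates 2 and 3.

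The calcitonin receptor gene Calcr, a marker of mature osteoclasts, had no UMI in any Ctsk-high cell or other C1q-positive cell of the 4 libraries. Clec4n was lower in the Ctsk-high cells of all 3 infarcts, at 16.3, 70.3 and 71.2 CPM against 142, 202 and 165 CPM. Scarb1 was 12.3, 22.2 and 23.7 CPM against 35.8, 30.8 and 30.8 CPM in the infarcts, and 64.5 against 27.1 CPM at baseline, from 4 UMIs. Pdpn, a membrane glycoprotein, was 96.8 against 1.80 CPM at baseline, from 6 UMIs, 127 against 8.34 CPM in replicate 1 and 15.8 against 12.5 CPM in replicate 2, and had no UMI in replicate 3. The RANK ligand gene Tnfsf11 had 1 UMI over all Ctsk-high cells, in replicate 1 (4.09 CPM). Its decoy receptor Tnfrsf11b was 32.7 CPM in replicate 1 and 5.94 CPM in replicate 3, with none elsewhere. Csf1 was 57.2 CPM in replicate 1, 4.43 CPM in replicate 2 and 0 in replicate 3, and Il34 was 1.27 CPM in replicate 2 and 0 in the other infarcts.

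Genes that are not members were tested between Ctsk-high and other C1q-positive cells, both with at least 10 C1q UMIs, in counts summed per heart. Only 2, 13 and 8 Ctsk-high cells of infarct replicates 1, 2 and 3 entered. By edgeR's quasi-likelihood test with the heart as a block, 24 of 12494 genes rose (0.192%) and 36 fell (0.288%) at a Benjamini-Hochberg adjusted p under 0.01. The separate hearts are biological replicates of the infarct group.

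Of 86 pathway genes tested, 2 passed, both higher, beside a median log2 fold change of -0.36 over the pathway genes and -0.33 over all genes. They were Slc9b2, by 6.81 ± 0.77 on the log2 scale (SE; adjusted p = 1.38e-14, edgeR), and Mmp9, by 4.69 ± 0.79 (adjusted p = 5.03e-06, edgeR). The Slc9b2 means were 0.619 ± 0.340 CPM in other C1q-positive and 96.4 ± 159 CPM in Ctsk-high cells, higher in 2 of 3 hearts. The Mmp9 means were 3.62 ± 1.55 and 132 ± 229 CPM, higher in 1 of 3 hearts, infarct replicate 2, and its call was lost without that heart. Igf2r, a receptor that carries lysosomal enzymes, rose by 2.17 ± 0.51 (adjusted p = 0.0049), from 28.5 ± 2.04 to 150 ± 19.7 CPM.

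Among the genes that fell were chemokines that draw monocytes, namely Ccl7 with a log2 fold change of -6.01, Ccl12 with -4.02, Ccl8 with -3.98 and Ccl2 with -3.64. The interferon-induced chemokine Cxcl10 (-4.65), the acute-phase gene Saa3 (-5.72) and the cell-cycle gene Ccnd1 (-3.80) fell as well, as did Marcksl1 (-4.33), Hpgd (-3.53) and Plac8 (-3.52). Timp3 and Fbn1, an inhibitor of matrix proteases and a microfibril protein, rose by 4.47 and 4.37, with SDs of 524 and 498 CPM around Ctsk-high means of 309 and 296 CPM. Both turned to -7.55 and -7.85 after thinning to 4000 UMIs, which left no Ctsk-high cell of replicate 1. A fibroblast-marked cell stood among the 2 cells of replicate 1 in this fit. The number of genes called was 221, 22 and 7 without infarct replicate 1, 2 or 3, and that of pathway genes 11, 0 and 1. It was 11 genes with no replicate block.

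A second fit, added once these counts were known, took Ctsk-high cells whatever their C1q count and left out fibroblast-marked cells from both groups. It compared 4, 60 and 9 Ctsk-high cells with other C1q-positive cells. Cells near the fibroblast limit were left out too, such as a cell of replicate 2 with 7 fibroblast and 356 Ctsk UMIs. It called more genes than the planned fit under any of its settings (4 to 591): 459 of 12493 genes rose (3.67%) and 781 fell (6.25%) by edgeR. C1q itself differs between these groups by their definition, and replicate 2 supplied most of the cells. Without replicate 2 the fit called 103 genes, 6 of them in the pathway, and without replicate 3 it called 24 pathway genes. With no replicate block it called 2160 genes.

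Of 87 pathway genes, 23 rose and 14 fell in the added fit, beside a median log2 fold change of -0.20 for the pathway and -0.22 for all genes. Of 21 acid and resorption genes 12 passed, all 12 higher (2 were lower at an unadjusted p under 0.05), among them Tcirg1, the osteoclast proton-pump subunit (1.52 ± 0.34; 105 to 361 CPM), Atp6v1b2 (1.82 ± 0.34; 118 to 525 CPM) and Slc4a2, the chloride and bicarbonate exchanger (2.02 ± 0.39; 17.8 to 78.0 CPM). Mmp9 rose by 9.29 ± 0.48 and Car2 by 6.85 ± 0.69, the latter higher in 2 of 3 hearts. Of 15 fusion and adhesion genes, 5 rose, led by Itgb3 (6.39 ± 0.53, higher in 2 of 3 hearts), Myo10 (4.85 ± 0.47) and the kinase gene Src (4.17 ± 0.44). Cd81, a tetraspanin, fell by 3.62 ± 0.45, and Ptk2b by 1.36 ± 0.41.

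Brakes on osteoclast formation had 8 of 11 genes lower in the added fit and 0 higher, also 0 higher at an unadjusted p under 0.05, with a median of -1.66. Lilrb4a, an inhibitory receptor, fell by 2.98 ± 0.49, and the inhibitor of DNA binding Id3 by 3.55 ± 0.66, although Id3 had a log2 fold change of 1.47 when fibroblast-marked cells were kept. Irf8, which holds back NFATC1, fell by 1.66 ± 0.38, from 255 to 126 CPM.

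Transcription factors split in the added fit: 4 of 14 rose and 3 fell. Jdp2, a partner of AP-1 in osteoclast formation, rose by 4.09 ± 0.39 (24.7 ± 3.03 to 548 ± 386 CPM), Ppargc1b by 2.98 ± 0.48 and Prdm1, a repressor of the brakes, by 2.20 ± 0.40. The AP-1 genes Jun, Fos and Junb fell, for Jun from 870 ± 91.3 to 274 ± 77.8 CPM. Of 9 genes tested from the list of mature osteoclast markers, 5 rose and 1, Clec4n, fell. Of 19 signal inputs 0 passed by edgeR, where 11 were lower and 0 higher at an unadjusted p under 0.05. Among the 10 genes with the highest fold changes were Mmp9, Slc9b2 (8.04), Bdh2 (6.80), Sdc1 (5.59), Cd109 (5.04), Chchd10 (4.61), the transferrin receptor gene Tfrc (4.50), Coq8a (4.24) and Jdp2. The lowest were Saa3 (-5.65), Hpgd (-5.38), F13a1 (-5.37), Tmem176a (-5.10), Plbd1 (-4.90), Ccl12 (-4.84), Tmem176b (-4.65), Ccl7 (-4.57), Ccl2 (-4.33) and Ighm (-4.28).

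Ctsk-high cells of infarct replicate 2 also carried cell-cycle transcripts. At least 10 UMIs of 7 proliferation genes were found in 15 of its 65 Ctsk-high cells (23.1%), against 2.61% of its other C1q-positive cells, which were shallower. The counts were 0 of 14 in replicate 1, 1 of 10 in replicate 3 and 0 of 4 at baseline.

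Along Gpnmb, the members took different courses in C1q-positive cells that were not Ctsk-high. For this comparison each cell was thinned to 4000 UMIs, shallower cells were left out, and levels are CPM of thinned UMIs, mitochondrial genes included. In the infarcts, 18393 cells had 0 Gpnmb UMIs and 541 had at least 6, namely 173, 141 and 227 in replicates 1, 2 and 3. At baseline, 5512 cells had 0 and 35 had at least 6. Before thinning, median depths were 11666 to 13972 UMIs at 6 or more and 8730.5 to 9096 UMIs at 0 in the infarcts.

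Atp6v0d2 was higher in every bin above 0 in all 3 infarcts. Its infarct mean was 2.95 ± 0.921 CPM at 0 Gpnmb UMIs, 11.3 ± 4.28 at 1 to 2, 20.8 ± 7.84 at 3 to 5, 57.2 ± 4.13 at 6 to 10 and 106 ± 65.2 at 11 to 20 (SD, n = 3). In the highest of these bins the hearts ranged from 32.6 to 156 CPM, with as few as 23 cells. At 6 or more it was 98.3, 58.5 and 80.4 CPM in replicates 1, 2 and 3, none of which overlapped the values at 0. At baseline it was 4.63 at 0 and 114 at 6 or more, the latter from 16 UMIs.

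Acp5 had a shallower course from a higher floor. Its infarct mean was 74.7 ± 6.63 CPM at 0, 100.2 ± 10.9 at 1 to 2, 133 ± 10.3 at 3 to 5, 134 ± 11.3 at 6 to 10 and 180 ± 26.7 at 11 to 20. At 6 or more it was 158, 128 and 156 CPM, 1.97 times the mean at 0. The baseline values were 10.7 at 0 and 171 at 6 or more, from 24 UMIs, so the baseline and infarct levels lay far apart at 0, and at 6 or more the infarct values lay within the baseline interval of 109.8 to 255 CPM.

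Ctsk was low throughout, since the cells above 4 UMIs had been taken out. Its infarct mean was 1.91 ± 0.804 CPM at 0 and 14.8 ± 8.82 at 6 or more, with 15.9, 23.0 and 5.51 CPM in replicates 1, 2 and 3 from 29 UMIs in all. At baseline it was 0.272 at 0 and 42.9 at 6 or more, from 6 UMIs in each. Both Acp5 and Atp6v0d2 were found in 12.7%, 8.51% and 9.25% of the cells with at least 6 Gpnmb UMIs, against 0.101%, 0.191% and 0.370% of those with 0.

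The other 4 members did not follow Gpnmb upward. Dcstamp had 2 UMIs in the 541 infarct cells at 6 or more, and Ocstamp had none, for which the 95% Poisson intervals reached 4.06 to 6.54 CPM in single hearts. Nfatc1 was lower in each heart, at 52.5 ± 2.71 CPM at 0 and 40.5, 26.6 and 41.9 at 6 or more. Tnfrsf11a was 54.8 ± 2.45 at 0 and 62.1, 53.2 and 33.0 at 6 or more, and these ranges overlapped.

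**Figure D3:**
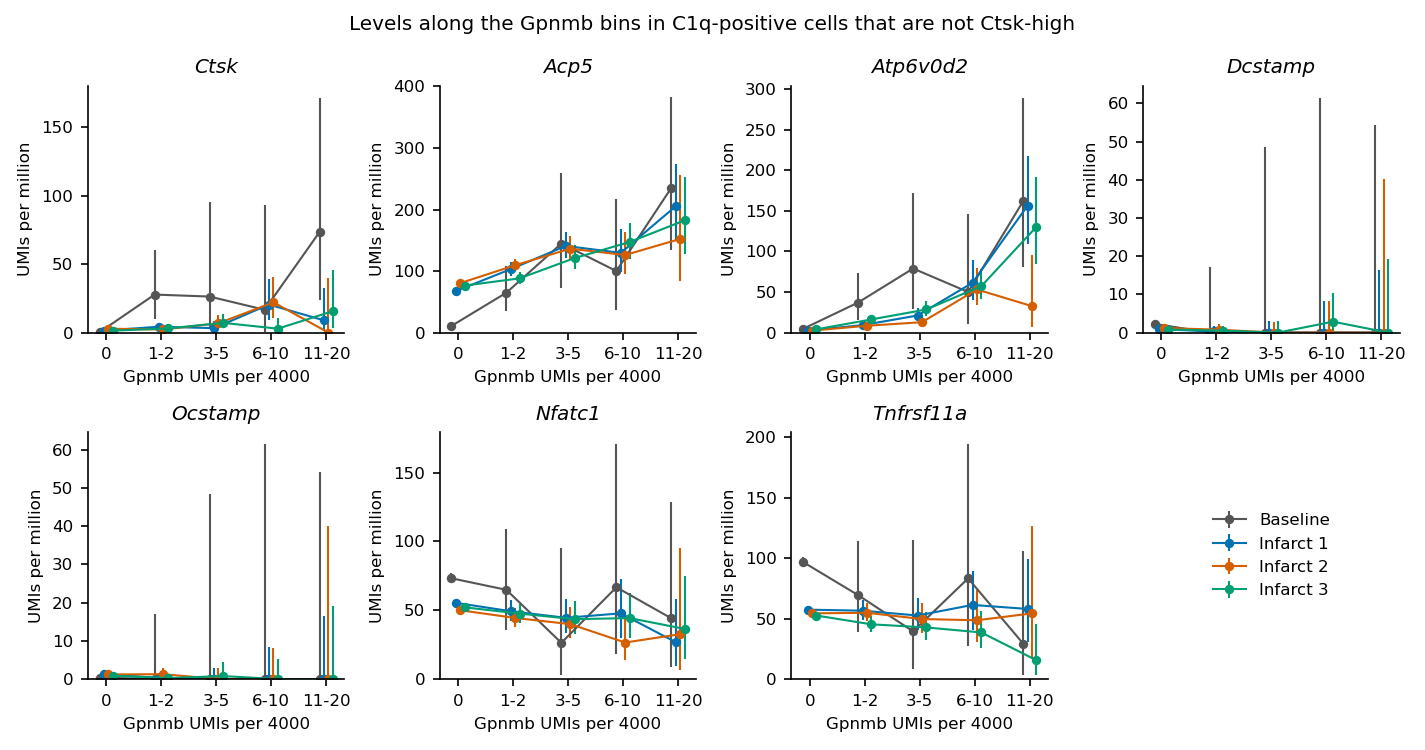
Levels of the 7 genes in CPM of thinned UMIs against Gpnmb UMIs per cell after thinning to 4000 UMIs, one line per library, with 95% Poisson intervals as bars and bins of at least 15 cells. Between the bins of 0 and of 11 to 20 the infarct mean goes from 2.95 to 106 CPM for Atp6v0d2, from 74.7 to 180 CPM for Acp5 and from 52.5 to 32.0 CPM for Nfatc1.

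For the genes that are not members, cells with at least 6 Gpnmb UMIs were tested against those with 0, summed per heart, with Gpnmb left out. By edgeR, 661 of 11389 genes rose (5.8%) and 745 fell (6.54%) at an adjusted p under 0.01. Of 84 pathway genes, 22 rose and 16 fell, beside a median log2 fold change of -0.05 for the pathway and -0.06 for all genes. Without infarct replicate 3 the fit called 878 genes, and with no replicate block 713. Whichever heart was left out, 34 pathway genes passed.

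Of 20 acid and resorption genes, 13 rose and 7 did not pass, with a median of 0.59 over the 20, and 1 of the 7, Mmp9, was lower at an unadjusted p under 0.05. The cathepsin genes Ctsl, Ctsd and Ctsb rose by 2.22 ± 0.08, 2.18 ± 0.07 and 1.64 ± 0.07 on the log2 scale. The proton-pump subunit genes Atp6v1a, Atp6v1c1 and Tcirg1 rose by 1.12 ± 0.09, 0.99 ± 0.11 and 0.80 ± 0.10, for Tcirg1 from 95 ± 8.94 to 159 ± 26.2 CPM. Clcn7, the lysosomal chloride exchanger, rose by 1.07 ± 0.18.

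Transcription factors and brakes had more falls than rises. Of 14 transcription factors, 7 fell and 1 rose. Those that fell most among genes of at least 10 CPM were Jdp2 (-1.36 ± 0.28), Junb (-1.02 ± 0.08) and Fosl2 (-1.01 ± 0.14), and the 1 that rose was Mitf, a regulator of lysosomal genes (0.62 ± 0.14), though it turned to -0.020 after thinning to 2000 UMIs. Of 11 brakes, 5 passed, all 5 lower, led by Rbpj (-1.25 ± 0.12), Socs3 (-1.21 ± 0.12) and Tnfaip3 (-1.14 ± 0.16). Irf8, which fell in the added fit of Ctsk-high cells, had a log2 fold change of -0.15 along Gpnmb, with an adjusted p of 0.295 by edgeR, and the difference between the fits was not tested.

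Signal inputs had 3 of 19 higher and 2 lower. The lipid receptor gene Trem2 rose by 1.18 ± 0.07, its adaptor Tyrobp by 0.40 ± 0.07 and Pirb by 0.30 ± 0.09 (-0.12 after thinning to 2000 UMIs), while Nfkb1 and Csf1r fell by 0.70 ± 0.12 and 0.69 ± 0.08. Of 14 fusion and adhesion genes, 4 rose, led by the sheddase gene Adam8 (2.43 ± 0.12), the tetraspanin gene Cd9 (1.11 ± 0.08) and Itgav (0.64 ± 0.11), and Cd81 fell by 2.04 ± 0.12.

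The list of mature osteoclast markers did not rise as a group. Of 6 tested, Pdpn rose by 2.22 ± 0.28 and Clec4n fell by 0.59 ± 0.11. Mmp9 was 1.12 CPM at 6 or more and 4.48 CPM at 0 (adjusted p = 0.0674, edgeR), where the planned Ctsk-high fit had 132 ± 229 against 3.62 ± 1.55 CPM. Rab38 had no UMI at 6 or more and 1.35 CPM at 0, and Ckb (431 and 492 CPM) and Scarb1 (31.5 and 33.0 CPM) did not pass. Calcr, Oscar, Itgb3, Siglec15, Car2 and Slc9b2 had too few counts for the test.

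Over all genes, those with the highest fold changes at 6 or more Gpnmb UMIs were the fatty-acid carriers Fabp5 (4.14) and Fabp4 (3.24), osteopontin, Spp1 (3.47), the elastase Mmp12 (2.99), Anpep (2.91), Syngr1 (2.74), Igf2r (2.66), Il7r (2.61), Adam8 and galectin-3, Lgals3 (2.42). The lowest were Il1b (-3.15), Plac8 (-3.01), Saa3 (-2.91), Marcksl1 (-2.90), Egr1 (-2.88), Tmem176a (-2.87), Cxcl10 (-2.85), Tmem176b (-2.62), Ccnd1 (-2.55) and Hpgd (-2.47). For the fatty-acid carrier Fabp5 the means were 239 ± 28.8 CPM at 0 and 4049 ± 342 CPM at 6 or more.

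**Figure D4:**
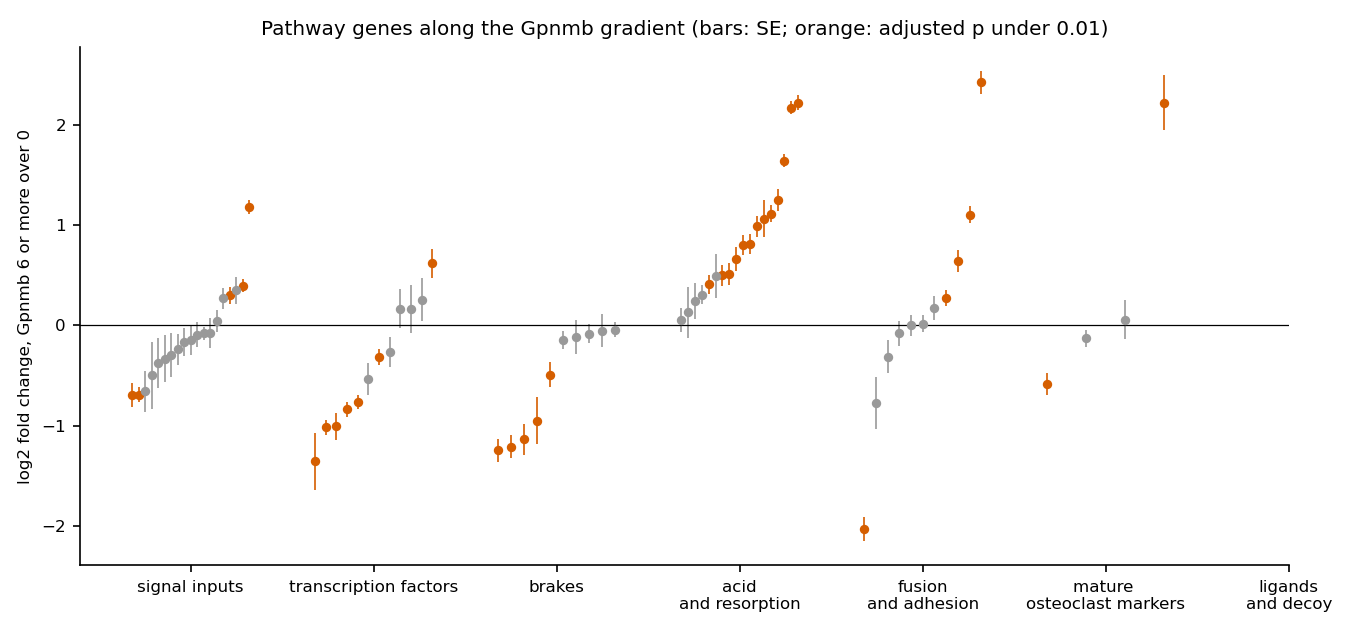
Log2 fold change of pathway genes between cells with at least 6 and with 0 Gpnmb UMIs, with SE as bars, grouped by list, drawn for 74 genes that averaged 10 CPM or more, and orange for an adjusted p under 0.01. The 13 acid and resorption genes that pass all lie above 0, and the brakes that pass all lie below 0.

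The genes whose course over the 17 sums of library and Gpnmb bin was most like that of a member were found by Pearson's correlation of log2(CPM + 1) over 7727 genes, a description in which all points share libraries and bins. For Acp5 these were Syngr1 (0.98), Lhfpl2 (0.97), Fth1 (0.97), Ctsd (0.96) and Trem2 (0.95), and Gpnmb itself gave 0.74. For Atp6v0d2 they were Lrp1 (0.94), Vim (0.93), Fabp4 (0.93), Osbpl8 (0.93) and C77080 (0.93), and Gpnmb gave 0.86. Among the 5 genes nearest to Ctsk were Tns3 (0.88), Mmp8 (0.86), Mdh2 (0.86) and Zfand2a (0.83). Several Ctsk sums held few UMIs, such as 2, 0 and 3 at 11 to 20 Gpnmb UMIs in infarct replicates 1, 2 and 3. Counting error was not taken into account, so little is read from these 4 genes.

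Nfatc1 was nearest to Wdr36 (0.92), Axl (0.92), Zfp36l2 (0.91), Ccar1 (0.91) and Myc (0.91), and Gpnmb gave -0.67. Tnfrsf11a was nearest to Washc4 (0.94), Zcchc2 (0.92), Hist1h1d (0.91), Ccdc117 (0.91) and R3hcc1l (0.91), and Gpnmb gave -0.42. Dcstamp and Ocstamp stayed under 20 CPM in every sum and were not compared.

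Clusters were built without the members, Gpnmb or the pathway genes. Among the 12 clusters with at least 20 cells in every infarct library, and over all cells, Ctsk, Acp5, Atp6v0d2 and Ocstamp had their highest infarct mean in a reparative macrophage-like cluster of 1641 cells led by Ctsk, Mmp9, Mmp12 and Gpnmb, which held 51 of the 93 Ctsk-high cells. A further 15 lay in a proliferating-like cluster and 12 in a fibroblast-like cluster. Over all Ctsk-high cells, the median Gpnmb count was 33 UMIs at baseline and 0, 0 and 5.5 in infarct replicates 1, 2 and 3. Of the 89 Ctsk-high cells of the infarcts, 47 had no Gpnmb UMI. When 20 clusters were aimed at, 37 of the 93 fell into 1 unnamed cluster of 44 cells, 33 of them from infarct replicate 2, and led by Ctsk, Mmp9, Acp5, Atp6v0d2 and Slc9b2. When cells under 1000 UMIs were left out and the rest clustered again, none of the 7 was highest in a reparative cluster and 6 were highest in a proliferating-like one.

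Without Ctsk-high cells, the same cluster had, of those 12, the highest Acp5 (172 ± 19.1 CPM, SD, n = 3), Atp6v0d2 (46.2 ± 12.1 CPM) and Ctsk (11.9 ± 1.56 CPM), with 109, 76.7 and 25.5 CPM at baseline. Next for Acp5 was the large reparative macrophage-like cluster, at 98.0 ± 3.27 CPM, with no overlap. Next for Ctsk was an unnamed cluster of shallow cells led by hemoglobin genes, at 9.49 ± 7.55 CPM, which overlapped.

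Without Ctsk-high cells, the fusion genes were highest in dendritic cell-like cells. Dcstamp was 16.1 ± 3.34 CPM there in the infarcts and 46.7 CPM at baseline, and in the reparative cluster 6.54 ± 1.79 and 23.2 CPM, with no overlap in the infarcts. With Ctsk-high cells the reparative cluster reached 15.8 ± 15.9 CPM of Dcstamp and 11.1 ± 14.6 CPM of Ocstamp, and both overlapped the dendritic cell-like values. In dendritic cell-like cells Ocstamp was 10.5 ± 3.03 CPM in the infarcts and 1.85 CPM at baseline, from 11 UMIs, and its infarct values overlapped those of an unnamed cluster led by Saa3 and Arg1 (4.00 ± 3.43 CPM). Nfatc1 was highest in resident macrophage-like (83.2 ± 22 CPM) and monocyte-like cells (82.8 ± 14.4 CPM), which did not differ beyond their spread. Tnfrsf11a was highest in resident macrophage-like cells (84.4 ± 25.5 CPM), with the reparative cluster next (68.6 ± 12.6 CPM), and these overlapped. Fibroblast-like cells, 14 to 42 per infarct library and thus outside the 12 clusters, had more Ctsk than the reparative cluster once Ctsk-high cells were left out, at 61.2 ± 28.6 CPM. With them they had 126 ± 55.8 CPM, and at baseline 1.84 CPM, from 1 UMI. Atp6v0d2, Dcstamp and Ocstamp had no UMI in the fibroblast-like cells of the infarcts.

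**Figure D5:**
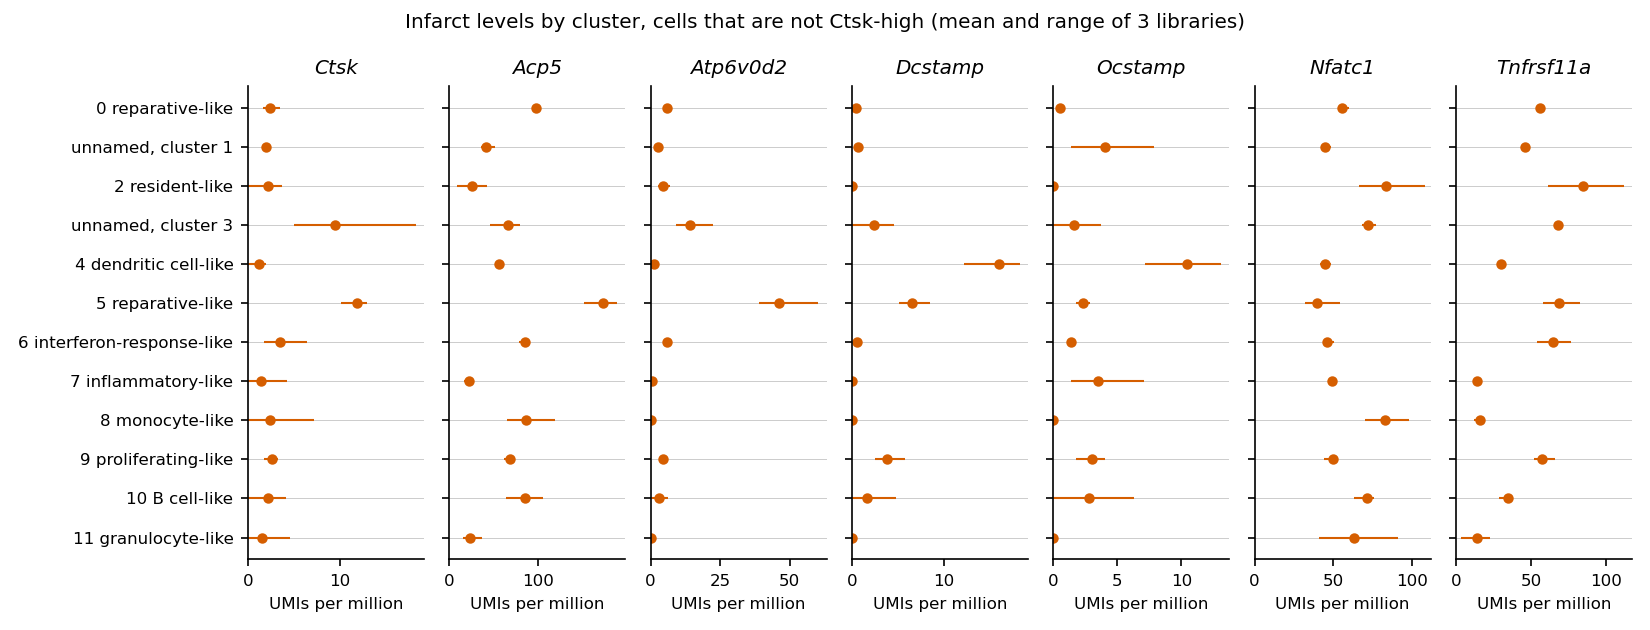
Level of each gene in CPM in the clusters with at least 20 cells in every infarct library, without Ctsk-high cells, as the mean and range of the 3 infarct libraries. Acp5, Atp6v0d2 and Ctsk are highest in the reparative macrophage-like cluster, at 172, 46.2 and 11.9 CPM, and Dcstamp and Ocstamp in dendritic cell-like cells, at 16.1 and 10.5 CPM.

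Free RNA bears on these shares, since a UMI can be found in a cell that does not express the gene. After thinning, 22.2% of other C1q-positive infarct cells had an Acp5 UMI, against 26.4% of 178 B cell-like cells and 10.7% of 28 granulocyte-like cells, with median depths of 8811, 8987 and 2550.5 UMIs before thinning. At baseline the shares were 4.07% and, in 76 B cell-like cells, 17.1%. For Acp5 the share of C1q-positive cells was therefore not above that of B cell-like cells. Siglech, a gene of the dendritic cell marker list, was among the leading genes of the B cell-like cluster. Whether B cell-like cells lack Acp5 transcripts of their own is not known, so this comparison cannot measure free RNA. No expression is read from single Acp5 UMIs.

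For the scarce genes, the B cell-like shares cannot set a background, since they rest on 1 or 2 cells. Of 178 such infarct cells, 1 had a UMI of Ctsk, 1 of Dcstamp, 1 of Ocstamp and 2 of Atp6v0d2. The 95% interval was 0.0142% to 3.09% for 1 cell and 0.136% to 4.00% for 2 cells. Among 28 granulocyte-like infarct cells, 1 had Ctsk and none had Atp6v0d2, Dcstamp or Ocstamp, with an upper limit of 12.3%. Ctsk was found in 0.952% of other C1q-positive infarct cells and 0.562% of B cell-like cells, Atp6v0d2 in 1.97% and 1.12%, Dcstamp in 0.273% and 0.562%, and Ocstamp in 0.366% and 0.562%. Nfatc1 was found in 18.0% and 26.4%, and Tnfrsf11a in 18.9% and 12.9%. The part of free RNA in the levels of the members was not tested.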

How the data were processed

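Single-cell libraries were made with the 10x 3′ chemistry from sorted heart cells. The deposited matrices hold raw UMI counts for each gene in each cell, made by the authors with Cell Ranger, which the matrix headers give as 3.1.0 and the submitters' processing notes as 3.0.1, against mm10. The study's limits of 500 to 40000 UMIs and more than 200 genes per cell were applied. Gene positions came from the GRCm38 annotation and promoters from RefSeq.

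Counts were summed per library and group of cells, without mitochondrial genes. For the infarct hearts, quasi-likelihood tests of edgeR 4.0.16 were run in R 4.3.3 after TMM scaling and filterByExpr, at an adjusted p of 0.01. Each heart gave 1 sum for either group of cells, which pairs the sums, so the heart was a block. DESeq2 1.42.0 was an alternative. The members got no test and were left out of the adjustment. Poisson intervals are exact at 95% and cover counting error only. Thinning drew 4000 UMIs per cell at random, which left out 2544 baseline cells and 1291 to 1877 cells of each infarct library. Clusters came from 2000 variable genes, 20 components and 25 neighbours (leidenalg 0.10.2, scikit-learn 1.9.0, Python 3.11.15). A cluster was named from at least 3 markers of a list with a log2 fold over 1 in at least 10% of its cells.

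The members, gene lists, thresholds and tests were chosen with earlier results of these data known. Named were all members, up to 3 rises and 3 falls per list at a mean of at least 10 CPM, all mature markers and ligands, and the 10 highest and 10 lowest genes per fit at a mean of at least 50 CPM that went the same way in all 3 hearts; other pathway genes named were picked after their values were seen. Some genes that the rule would name are not reported here. Tested on simulated data with 200 changed genes, the planned Ctsk-high fit recovered 1% of 2-fold and 34% of 4-fold changes over 12501 genes. The added fit recovered 13% and 63% over 12500, and the Gpnmb fit 44% and 77% over 11397. Simulated counts had the same small spread for every gene, whereas real sums of few cells can spread widely, as for Mmp9 (132 ± 229 CPM). The rates may thus be too high for these data.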

Additional observations from a re-analysis of the deposited data

Results flagged for a closer look

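Cells above the limit of 40000 UMIs were not part of any comparison, and some of them held at least 5 Ctsk UMIs. There was 1 such cell in infarct replicate 1, with 7 Ctsk UMIs, no UMI of Acp5, Atp6v0d2, Dcstamp, Ocstamp or Nfatc1 and 1 of Tnfrsf11a. In infarct replicate 2 there were 7 such cells of 13 above the limit, with 12 to 1072 Ctsk UMIs, and none in the baseline library or in infarct replicate 3. In 6 of the 7, Ctsk was 178 or more, Acp5 107 to 568, Atp6v0d2 22 to 64 and Nfatc1 14 to 36 UMIs.

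Tnfrsf11a in Ctsk-high cells of baseline was 16.1 CPM, from 1 UMI in 4 cells, below the 98.3 CPM of other C1q-positive cells. In each infarct library the Ctsk-high cells lay above the others. In infarct replicate 1 this was 61.3 against 58.1 CPM, with both values within the Poisson interval of 34.3 to 101 CPM. The difference between baseline and infarct was not tested.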

How the results depend on the processing

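The planned fit of Ctsk-high cells depended most on its settings. Against 60 genes and 2 pathway genes called, it called 260 and 15 with cells of at least 3 Ctsk UMIs, 146 and 9 with at least 10 (no cell of infarct replicate 1), 591 and 14 with at least 1 C1q UMI, 19 and 1 against cells of at least 6 Gpnmb UMIs, 8 and 0 without cells over 20000 UMIs, 23 and 1 by DESeq2, and 7 to 221 and 0 to 11 with 1 heart left out. Thinning to 4000 UMIs left 4 genes from 2 libraries, and leaving out fibroblast-marked cells 5 pathway genes. With no replicate block it called 11 genes (8 higher, 3 lower, against 24 and 36), the added fit 2160 (898 and 1262, against 459 and 781) and the Gpnmb fit 713 (372 and 341, against 661 and 745). Pathway genes lower in the added fit went from 14 to 22 without the block, and the other pathway counts moved by less than 1.5 times. The added fit went from 1240 genes and 37 pathway genes to 448 and 10 with fibroblast-marked cells and 496 genes by DESeq2, with 103 to 1250 and 6 to 38 when 1 heart was left out. The Gpnmb fit went from 1406 genes to 472 after thinning to 2000 UMIs, 3065 without thinning, 789 by DESeq2 and 878 to 1260 with 1 heart left out. Its pathway count went from 38 to 20 after thinning to 2000 UMIs.

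Directions turned for Fbn1 (log2 fold change -7.85) and Timp3 (-7.55) after thinning to 4000 UMIs, for Mmp9 without cells over 20000 UMIs (-9.72) and with 1 heart left out (-10.12 to 5.81), for Id3 with fibroblast-marked cells (1.47), and for Mitf (-0.020) and Pirb (-0.12) after thinning to 2000 UMIs. The cause was not tested. Of 6 members other than Ctsk, 5 were higher in Ctsk-high cells of all 3 hearts, 3 after thinning and 2 without cells over 20000 UMIs, and 5 to 6 with 1 heart left out. The reparative cluster was highest for 4 members, 2 with 20 clusters aimed at, 0 with cells of at least 1000 UMIs, and 3 to 6 with 1 heart left out. The 4 members higher in infarct were 3 without Ctsk-high cells, and the 3 higher along Gpnmb were 2 after thinning to 2000 UMIs or without cells over 20000 UMIs. Both counts held with 1 heart left out.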
